A study of Mus musculus with 6 samples.

Results

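The collagen genes of adult mouse aortic EC were followed after overexpression of Meis1. All rows of the deposited gene count table whose symbol reads Col, a number, the letter a and a number were taken, which gave 44 of the 54429 listed genes. The rule used symbols only and no measured value, although the family and the gene lists were chosen with earlier results of these data known. The members comprised 11 fibrillar collagen genes, 8 basement membrane collagen genes (the 6 type IV chains, Col15a1 and Col18a1) and 25 others. Primary aortic EC of adult WT C57BL/6 mice were transduced for 48 h with a vector for Meis1-OE or for YFP-CTRL. Each condition had 3 libraries, which the study describes as independent replicates. Cells of both conditions were grown on a gelatin-based coating, gated as YFP+CD31+VEC+ at 72 h, plated again and expanded to confluency before RNA was taken from 300000 cells for ribodepleted RNA-seq. All cells of both conditions therefore carried a vector, and the promoter that drives Meis1 in the vector is not given in the sources used here. Libraries are named by condition and by the letter in the deposited table, and values listed without letters stand in the order A, B, C.

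Collagens are secreted proteins in which chains wind around each other into a helix, and each gene encodes a chain. Fibrillar collagens such as types I, III and V build the tensile fibrils of connective tissue, whereas type IV forms the sheet-like network of the basement membrane on which endothelium sits, and type XVIII is a heparan sulfate-bearing collagen of vessel basement membranes whose C-terminal fragment is endostatin. The other members include the short-chain network former type VIII of large vessels, the fibril-associated collagens, the beaded-filament type VI and the collagens with a transmembrane segment.

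Total counts ran from 34176592 to 47956569 per library after rounding. Meis1 was counted between 135325 and 157828 times in the Meis1-OE libraries and between 39 and 85 times in the YFP-CTRL libraries. Levels are given as CPM, counts scaled to library size with TMM factors. Of 16065 genes that passed edgeR's filter on low counts, 665 rose and 438 fell with Meis1-OE at a Benjamini-Hochberg adjusted p under 0.05 by edgeR's quasi-likelihood test, and on library totals without TMM factors the counts were 1048 and 179, with the median log2 fold change of all genes at 0.15. The YFP-CTRL libraries differed among themselves. The mean log2(CPM + 1) over 15 S and G2/M phase genes was 4.39, 5.40 and 6.58 in controls and 6.63 to 6.68 in Meis1-OE libraries. Every Meis1-OE library scored above every YFP-CTRL library. Fits with this score as a covariate therefore cannot fully tell the score from the condition. Whether Meis1-OE itself raised the score was not tested. All 12 endothelial markers were tested, and their summed level was 3797 to 4746 CPM in Meis1-OE EC and 4675 to 6516 CPM in YFP-CTRL EC. Of these, Vwf (log2 fold change 3.12, edgeR adjusted p = 0.0120) and Cldn5 (1.81, 0.0398) rose, and Tek (-0.78, 0.0351) fell. Kdr (-1.23, 0.0504) and Cdh5 (-0.70, 0.0535) were lower in every Meis1-OE library than in any YFP-CTRL library and did not pass. Esam (0.37, 0.269) was higher in every Meis1-OE library and did not pass either. Of 10 fibroblast markers, 9 failed the filter, with Lum, Dpt and Thy1 at 0 counts in every library, and the summed level of 12.04 to 12.11 CPM in Meis1-OE EC and 16.2 to 49.5 CPM in YFP-CTRL EC was almost all Pdgfra. Col1a1, Col1a2 and Col3a1 are on this list and are also collagen members. Pdgfra (log2 fold change -1.47, edgeR adjusted p = 0.0598) was lower in every Meis1-OE library than in any YFP-CTRL library and did not pass. Of 10 smooth muscle and pericyte markers, 3 were tested, the summed level was 4.999 to 6.54 CPM in Meis1-OE EC, and it was 1.62, 5.12 and 22.7 CPM in controls, where library C held 902 counts of Acta2. Des, a muscle intermediate filament gene among those 3, was counted 0, 2 and 2 times in controls and 20, 18 and 24 times with Meis1-OE (edgeR adjusted p = 0.0150). With under 10 counts in every YFP-CTRL library, Des reached the test only through the Meis1-OE libraries. Being higher was therefore built into its inclusion. The part of other cells in the collagen differences was not tested. In bulk RNA, fewer cells of a type and less RNA per cell cannot be told apart.

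Of the 44 collagen genes, 22 passed the filter and were tested, and 22 did not. Col5a1, Col8a1, Col23a1, Col14a1 and Col4a4 rose and Col18a1 fell in Meis1-OE EC, so that 6 of the 22 passed the threshold in either direction (27.3%), against 6.87% of all genes tested. Upward the members numbered 5 and downward 1, where 4.14% and 2.73% of all genes passed. Col14a1 and Col4a4, like Col17a1, had under 10 counts in every YFP-CTRL library and reached the test only through the Meis1-OE libraries, so these counts describe the members that could be tested and not all collagens. The median log2 fold change of the 22 was -0.15, also with Col4a4 set to the bound given further on, beside 0.01 for all genes tested. Over the alternatives it ran from -0.21 without Meis1-OE library A to 0.32 with the S and G2/M score as a covariate, so its sign was not stable. With DESeq2 in place of edgeR, 6 members passed upward and 3 downward, where 6.21% and 6.14% of all genes with an adjusted p did.

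The conditions did not overlap for 10 of the 22 (45.5%), 7 with every Meis1-OE library higher and 3 with every one lower. Among all tested genes the share was 33.1%, made up of 17.2% higher and 15.9% lower. Being higher was built into the inclusion of Col14a1, Col17a1 and Col4a4, so nothing is read from the share of 10. Of the 19 members with at least 10 counts in some library of each condition, 4 were higher and 3 lower without overlap (36.8%), against 32.3% of all tested genes that met the same minimum, which was chosen after seeing the data.

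**Figure D1:**
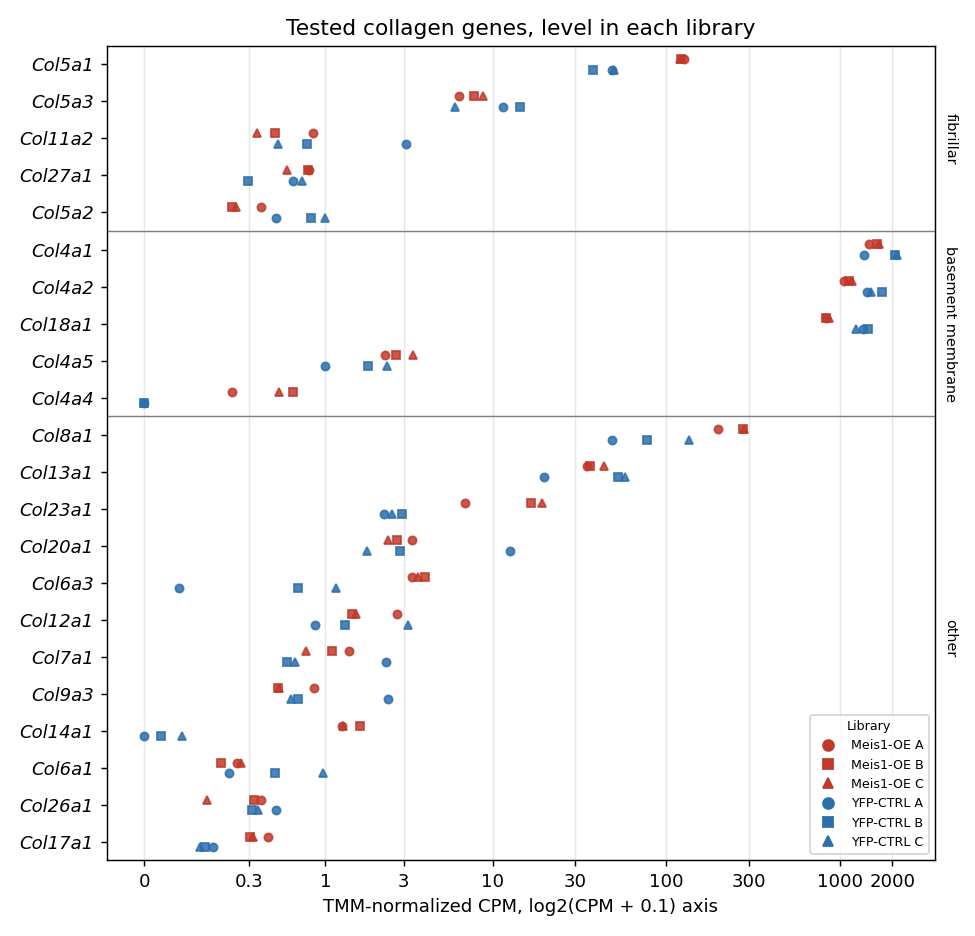
Level of each of the 22 tested collagen genes in each library, on an axis of log2(CPM + 0.1) with ticks at CPM values, grouped into fibrillar, basement membrane and other collagens. Red symbols are Meis1-OE libraries, blue symbols are YFP-CTRL libraries and shapes give the letter. Col4a1, Col4a2 and Col18a1 are at 826 CPM or more in every library, and Col5a1 and Col8a1 are the highest of the other groups in Meis1-OE EC.

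None of the abundant basement membrane collagens rose in Meis1-OE EC. Col18a1 fell by 0.68 on the log2 scale. Col4a1 and Col4a2, the chains of the ubiquitous type IV network, did not pass the threshold, and of the tissue-restricted chains Col4a4 rose from no count. Of the 8 genes of this class, 5 were tested, 1 rose, 1 fell and 3 did not pass.
Col18a1, at chr10:77052178-77166530 in build GRCm38.p6, was at 827, 826 and 867 CPM with Meis1-OE and at 1357, 1450.0 and 1242 CPM in controls. Every Meis1-OE library was below every YFP-CTRL library. The means were 840.1 ± 23.7 and 1349.8 ± 104 CPM (SD, n = 3 each), and the log2 fold change of -0.68 (standard error 0.11) had an edgeR adjusted p of 0.0148. The edgeR adjusted p was 0.0741, 0.120 and 0.0955 without Meis1-OE library A, B or C and 0.0554 without YFP-CTRL library B, with log2 fold changes of -0.62 to -0.71. RefSeq gives Col18a1 more than 1 start site, and gene-level counts do not separate the transcripts.
Col4a1 was at 1468, 1621 and 1673 CPM with Meis1-OE and at 1371, 2073 and 2135 CPM in controls. YFP-CTRL library A was the lowest of the 6 and the conditions overlapped, with a log2 fold change of -0.23 (standard error 0.18, edgeR adjusted p = 0.464). For Col4a1 it was -0.42 (edgeR adjusted p = 0.0517) without YFP-CTRL library A and -0.55 (edgeR adjusted p = 0.113) under the S and G2/M covariate.
Col4a2 was at 1055, 1131 and 1175 CPM against 1429, 1742 and 1516 CPM. These values did not overlap, and the log2 fold change was -0.48 (standard error 0.12) with an edgeR adjusted p of 0.0584. DESeq2 gave Col4a2 an adjusted p of 0.0220, and edgeR gave 0.0390 without YFP-CTRL library A and 0.0230 without YFP-CTRL library C.

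The unequal values of these partners are shown beside the sequence they share, since Col4a1 and Col4a2 are transcribed in opposite directions from neighbouring start sites. The RefSeq promoter windows of the pair, each with 250 bases before and 50 bases after the start, have 78 bases in common at chr8:11312777-11312854 (GRCm38.p6), printed here on the plus strand, which Col4a2 is transcribed from. Its ends are set by where the windows were cut, and the start sites used for both windows lie within it. The RefSeq span of Col4a1, on the minus strand, reaches 11312889, beyond the start used for its window. Capitals mark GGGCGG, the GC box bound by Sp1-type factors, read on both strands. A CCAAT box of the Col4a2 window, beginning 32 bases before the Col4a2 start, reaches only the first base of the stretch and is not marked.
Col4a1 and Col4a2 shared stretch: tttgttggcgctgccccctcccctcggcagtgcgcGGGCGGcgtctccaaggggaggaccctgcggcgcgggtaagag
Per kilobase of coding length, the count of Col4a2 relative to that of Col4a1 was 0.703, 0.682 and 0.687 with Meis1-OE and 1.02, 0.822 and 0.694 in controls. Every Meis1-OE library except A was below every YFP-CTRL library, and YFP-CTRL library C differed from Meis1-OE library A by less than the YFP-CTRL libraries differed among themselves. Among YFP-CTRL libraries the ratio was highest in A, where the S and G2/M score was lowest, and lowest in C, where that score was highest. The part of growth in the ratio was not tested.

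Col4a4 (chr1:82448419-82587034), a chain known from the specialised type IV network of the kidney glomerulus, was counted 10, 28 and 23 times with Meis1-OE and not at all in any YFP-CTRL library. Its level was 0.219, 0.617 and 0.496 CPM in Meis1-OE EC. Against a floor of 3 counts over the YFP-CTRL group, it was at least 17.8-fold higher in Meis1-OE EC. This bound takes in counting error of the YFP-CTRL group only, with the Meis1-OE counts as observed. The edgeR adjusted p was 0.0252. That p was 0.112 without Meis1-OE library B, 0.111 without Meis1-OE library C, 0.0817 without YFP-CTRL library B and 0.191 with the S and G2/M score as a covariate in edgeR. Col4a3, the partner chain encoded head to head with Col4a4, had 0 counts in all 6 libraries, which allows up to 3 counts in each. The RefSeq window of Col4a4 at chr1:82586800-82587099 (GRCm38.p6, minus strand) holds the first base of Col4a3 as well, so it is printed as a stretch from which only the Col4a4 side was counted. The Col4a4 span reaches 82587034, so most of this window lies inside the gene.
Col4a4: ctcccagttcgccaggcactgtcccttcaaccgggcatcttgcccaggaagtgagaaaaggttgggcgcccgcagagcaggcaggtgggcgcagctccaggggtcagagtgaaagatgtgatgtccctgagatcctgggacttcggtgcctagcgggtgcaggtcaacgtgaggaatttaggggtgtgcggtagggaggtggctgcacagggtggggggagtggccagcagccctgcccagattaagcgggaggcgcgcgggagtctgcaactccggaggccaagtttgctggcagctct
The window was searched on both strands for 4 motifs. GGGCGG was absent, as was the CCAAT box. A TATAAA box was absent, and so was TGACAG, the core bound by Meis proteins, so no base is in capitals.
Col4a5, the X-linked chain, was at 2.32, 2.71 and 3.39 CPM with Meis1-OE and at 1.0003, 1.84 and 2.38 CPM in controls. The conditions overlapped, with a log2 fold change of 0.68 (standard error 0.34, edgeR adjusted p = 0.250), or 0.11 under the S and G2/M covariate. Its neighbour Col4a6 and the vessel collagen Col15a1 had at most 6 and 2 counts in any library.

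Among fibrillar collagens, Col5a1 rose and no other member passed the edgeR threshold, with Col5a2 at an unadjusted p under 0.05. The chains of the main fibril formers, Col1a1, Col1a2 and Col3a1, were at the edge of detection in both conditions. Of 11 genes, 5 were tested, 1 rose and 4 did not pass.
Col5a1 (chr2:27886381-28039510) encodes the chain common to nearly all type V collagen, which starts and limits the width of fibrils. It was at 127, 122 and 119.9 CPM with Meis1-OE and at 48.8, 38.1 and 50.1 CPM in controls. All Meis1-OE libraries were higher, and YFP-CTRL library C lay with the other YFP-CTRL libraries. The means of 123 ± 3.61 and 45.7 ± 6.59 CPM (SD, n = 3 each) gave a log2 fold change of 1.43 (standard error 0.13, edgeR adjusted p = 0.00314), which is 2.69-fold. Under all 15 alternatives run for it, the log2 fold change of Col5a1 was between 1.32 and 1.57 and it passed the threshold.
The partner chain Col5a2 was at 0.372, 0.220 and 0.237 CPM with Meis1-OE and at 0.471, 0.809 and 0.990 CPM in controls. All Meis1-OE libraries were lower, with a log2 fold change of -1.45 (standard error 0.40) and an edgeR adjusted p of 0.0725. DESeq2 gave 0.0456 for Col5a2, and edgeR gave an adjusted p of 0.0462 without YFP-CTRL library A.
Col5a3, the third type V chain, was at 6.32, 7.82 and 8.74 CPM against 11.5, 14.3 and 6.05 CPM. YFP-CTRL library C was the lowest of the 6, so the conditions overlapped. The fitted log2 fold change was -0.48 (standard error 0.31, edgeR adjusted p = 0.370), whereas leaving out YFP-CTRL library C gave -0.78 (edgeR adjusted p = 0.0192). The value was -0.19 (edgeR adjusted p = 0.762) without YFP-CTRL library B, and it turned to 0.09 (edgeR adjusted p = 0.924) with the S and G2/M score as a covariate.
Per kilobase of coding length, the count of Col5a1 was 278, 451 and 411 times that of Col5a2 with Meis1-OE and 84.4, 38.4 and 41.3 times in controls. The Meis1-OE ratios all lay above the YFP-CTRL ratios, on 10 to 45 counts of Col5a2 per library.
Col11a2 and Col27a1, chains best known from cartilage, were at 0.345 to 0.831 CPM and 0.561 to 0.787 CPM in Meis1-OE EC. In YFP-CTRL EC Col11a2 ranged from 0.484 CPM to 3.12 CPM, with library A the highest, and Col27a1 ranged from 0.294 to 0.704 CPM. Both overlapped between conditions, with log2 fold changes of -1.39 and 0.39 and edgeR adjusted p-values of 0.274 and 0.556. With the S and G2/M score as a covariate, the Col11a2 value was 0.53 (edgeR adjusted p = 0.696).

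**Figure D2:**
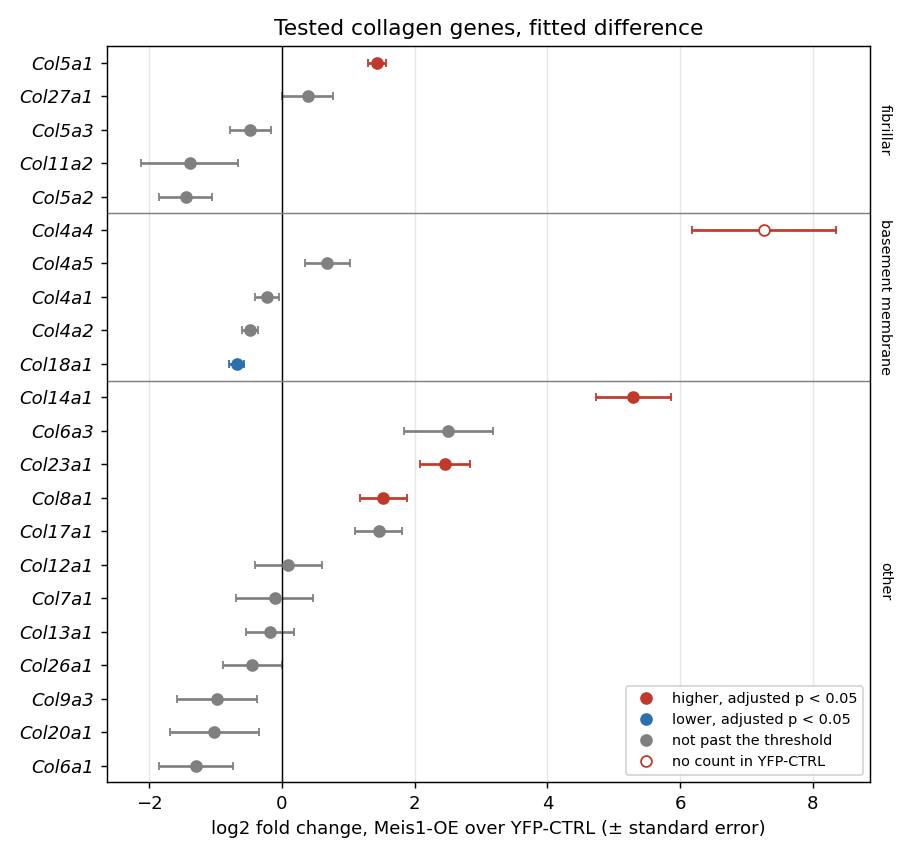
Log2 fold change of Meis1-OE over YFP-CTRL for the 22 tested collagen genes, with bars of 1 standard error from edgeR's quasi-likelihood fit, by class. Red and blue mark genes past an adjusted p of 0.05, and the open symbol is Col4a4, whose fitted value rests on no count in YFP-CTRL EC and is not a bound. In each class the genes past the threshold stand beside members on the other side of 0 or near it.

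In the remaining class, Col8a1, Col23a1 and Col14a1 rose and no gene fell by edgeR or DESeq2, nor was any lower at an unadjusted edgeR p under 0.05. Of the 25 genes, 12 were tested and 9 did not pass.
Col8a1 (chr16:57624256-57754737) encodes a chain of the short-chain type VIII collagen that endothelial and vascular smooth muscle cells lay down. It was at 199, 277 and 279 CPM with Meis1-OE and at 48.5, 77.7 and 136 CPM in controls. All Meis1-OE libraries were higher, and YFP-CTRL library C was the highest of its condition. The means were 252 ± 45.6 and 87.3 ± 44.4 CPM (SD, n = 3 each), with a log2 fold change of 1.53 (standard error 0.36) and an edgeR adjusted p of 0.0488, close to the threshold. Its edgeR adjusted p was 0.107, 0.191 and 0.184 without Meis1-OE library A, B or C, 0.174 without YFP-CTRL library B, 0.0518 in a robust fit and 0.0527 with at least 10 counts in every library. With the S and G2/M score as a covariate the log2 fold change of Col8a1 was 0.84 (edgeR adjusted p = 0.0637), whereas leaving out YFP-CTRL library C gave 1.98 (edgeR adjusted p = 0.00265). That library also held 902 counts of Acta2, a smooth muscle marker, against 46 to 152 with Meis1-OE and 7 and 89 in YFP-CTRL libraries A and B. Tagln (29 counts) and Cnn1 (13) were also highest of all libraries there. Myh11 (4 counts), Des (2), Pdgfrb (79), Cspg4 (3) and Myocd, Rgs5 and Kcnj8 (0 each) did not stand above the other libraries there. The part of other cells in the Col8a1 level was not tested. Col8a2, the other type VIII chain, did not exceed 2 counts per library.

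Among the collagens with a transmembrane segment, Col23a1 (chr11:51289679-51583925) was at 6.91, 16.7 and 19.3 CPM with Meis1-OE and at 2.29, 2.92 and 2.57 CPM in controls. Meis1-OE library A was the lowest of its condition and still above all YFP-CTRL libraries. The log2 fold change was 2.46 (standard error 0.38, edgeR adjusted p = 0.0140), which is 5.50-fold. The edgeR adjusted p was 0.0742 without Meis1-OE library B, 0.0664 without Meis1-OE library C, 0.0695 without YFP-CTRL library B and 0.0691 with the S and G2/M score as a covariate.
Col13a1, a cell-surface collagen of adhesion sites, was at 34.9, 36.5 and 43.7 CPM against 19.7, 52.7 and 58.2 CPM. The Meis1-OE libraries lay inside the YFP-CTRL range, with a log2 fold change of -0.18 (standard error 0.36, edgeR adjusted p = 0.790). For Col13a1 the value was -0.55 (edgeR adjusted p = 0.0557) without YFP-CTRL library A, 0.06 without YFP-CTRL library C and -0.89 (edgeR adjusted p = 0.138) under the S and G2/M covariate.
Col17a1, the hemidesmosome collagen of epithelia, was counted 19, 14 and 15 times in Meis1-OE EC and 5 times in each YFP-CTRL library. The conditions did not overlap, the log2 fold change was 1.46 (standard error 0.35), and the edgeR adjusted p was 0.0548, or 0.0459 on library totals. Col25a1 did not exceed 2 counts per library.

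The promoter windows of the 3 most abundant members that rose are given together. Each has 250 bases before and 50 bases after the start site chosen for the window in GRCm38.p6. The RefSeq span of Col5a1 begins at 27886381 and that of Col23a1 at 51289679, before those sites. More than 50 bases of the Col5a1 window and nearly all of the Col23a1 window therefore lie inside the gene. Capitals mark GGGCGG, the only one of the 4 searched motifs found in the 3 windows.
Col5a1, chr2:27886175-27886474, plus strand: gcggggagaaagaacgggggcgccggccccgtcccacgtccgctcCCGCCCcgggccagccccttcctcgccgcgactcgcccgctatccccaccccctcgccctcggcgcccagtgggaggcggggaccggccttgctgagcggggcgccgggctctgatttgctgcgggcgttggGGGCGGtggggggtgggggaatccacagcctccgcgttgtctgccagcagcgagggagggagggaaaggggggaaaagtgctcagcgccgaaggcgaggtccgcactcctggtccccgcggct
Col8a1, chr16:57754688-57754987, minus strand: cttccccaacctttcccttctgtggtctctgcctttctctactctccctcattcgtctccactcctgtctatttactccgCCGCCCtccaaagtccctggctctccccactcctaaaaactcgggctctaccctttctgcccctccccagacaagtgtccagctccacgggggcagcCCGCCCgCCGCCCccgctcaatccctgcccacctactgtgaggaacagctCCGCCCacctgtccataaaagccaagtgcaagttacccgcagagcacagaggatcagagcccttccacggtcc
Col23a1, chr11:51289670-51289969, plus strand: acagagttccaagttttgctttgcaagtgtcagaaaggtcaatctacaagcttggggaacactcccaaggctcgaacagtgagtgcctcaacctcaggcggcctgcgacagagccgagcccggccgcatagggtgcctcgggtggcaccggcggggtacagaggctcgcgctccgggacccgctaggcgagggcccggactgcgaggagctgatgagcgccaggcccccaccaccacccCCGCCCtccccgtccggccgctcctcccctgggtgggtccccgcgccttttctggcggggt
The GC box occurred 2 times in the Col5a1 window, 4 times in the Col8a1 window and 1 time in the Col23a1 window. TGACAG was in none of these windows, in none of the Col18a1, Col4a1, Col4a2 or Col4a4 windows, and in 7 of the 38 windows of 35 collagen genes (18.4%), against 19.2% of 32851 windows of all genes. GGGCGG was in 23 of the 38 (60.5%) against 35.7% of all windows, CCAAT in 13 (34.2%) against 37.4%, and TATAAA in 5 (13.2%) against 13.6%. A match is a run of letters and not a measured binding site. No window was listed for 9 collagen genes, Col14a1 among them.

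Of the fibril-associated collagens, Col14a1 passed the threshold. Col14a1 (chr15:55307644-55520803), a chain that decorates type I fibrils, was counted 58, 74 and 60 times with Meis1-OE and 0, 1 and 3 times in controls. The conditions lay far apart. Summed over libraries and scaled by depth, the ratio was 42.0 (95% exact interval 16.1 to 156, counting error only), and the edgeR adjusted p was 0.00489. Under all 14 alternatives that could test it, Col14a1 passed, with an adjusted p of at most 0.0408, which edgeR gave without YFP-CTRL library B. It reached these tests only through the Meis1-OE libraries, so being higher was built into its inclusion.
Col12a1, the closest relative of Col14a1 in domain make-up, was at 2.73, 1.48 and 1.55 CPM with Meis1-OE and at 0.853, 1.32 and 3.17 CPM in controls. The conditions overlapped, with a log2 fold change of 0.10 (standard error 0.50, edgeR adjusted p = 0.926). Its sign changed in 4 of 15 alternatives, with values from -0.72 under the S and G2/M covariate to 0.80 without YFP-CTRL library C.
Col20a1 and Col9a3 were highest in YFP-CTRL library A, at 12.7 and 2.41 CPM, and at most 3.35 and 0.853 CPM in every other library. Neither separated the conditions. Their log2 fold changes of -1.02 and -0.98 had edgeR adjusted p-values of 0.378 and 0.338 and turned to 0.9954 and 0.38 with the S and G2/M score as a covariate.

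Type VI collagen, which assembles from unlike chains into beaded filaments, was counted unevenly. Col6a3 was at 3.35, 4.03 and 3.67 CPM with Meis1-OE and at 0.0588, 0.662 and 1.17 CPM in controls. All Meis1-OE libraries were higher. The log2 fold change of 2.51 (standard error 0.67) had an edgeR adjusted p of 0.0695, which was 0.0184 without YFP-CTRL library A, 0.0135 without YFP-CTRL library C and 0.0477 with no filter, and DESeq2 gave 0.00145. Under the S and G2/M covariate the Col6a3 value was 1.32 (edgeR adjusted p = 0.195).
Col6a1 was counted 11, 8 and 12 times in Meis1-OE EC and 7, 19 and 44 times in YFP-CTRL EC. The conditions overlapped through YFP-CTRL library A, with a log2 fold change of -1.29 (standard error 0.56, edgeR adjusted p = 0.197), and with the S and G2/M score as a covariate it was -2.19 (edgeR adjusted p = 0.0323). Col6a2, needed with Col6a1 and Col6a3 for the usual type VI heterotrimer, did not exceed 5 counts per library, and Col6a4, Col6a5 and Col6a6 did not exceed 2.
Col7a1, the anchoring-fibril collagen, and Col26a1 overlapped between the conditions, with log2 fold changes of -0.11 and -0.45 and edgeR adjusted p-values of 0.929 and 0.562. The sign of Col7a1 changed in 6 of 15 alternatives, with values from -0.43 without YFP-CTRL library B to 1.16 with the S and G2/M score as a covariate, and 0.84 without YFP-CTRL library A.

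The 22 genes that failed the filter did not exceed 19 counts per library, and 12 of them did not exceed 3. Col4a3, Col9a1 and Col9a2 were at 0 throughout. The highest counts were 19 for Col11a1, 13 for Col1a2, 11 for Col22a1, 10 for Col2a1 and 8 for Col1a1. Differences in these genes were not detectable at this depth.

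Summed over members, the basement membrane collagens held most collagen counts in both conditions. Their summed level was 3353, 3582 and 3719 CPM with Meis1-OE and 4158, 5266 and 4896 CPM in controls. The conditions did not overlap, with means of 3551 ± 185 and 4773 ± 564 CPM (SD, n = 3 each). Fibrillar collagens summed to 133 ± 2.98 CPM with Meis1-OE against 59.6 ± 5.12 CPM in controls (SD, n = 3 each). This followed Col5a1, since without it the fibrillar sum was 9.63 ± 0.633 and 13.9 ± 4.23 CPM (SD, n = 3 each). The other collagens summed to 255, 343 and 354 CPM with Meis1-OE and to 90.1, 141 and 206 CPM in controls. Without Col8a1 that sum was 65.6 ± 9.03 CPM against 58.2 ± 14.7 CPM (SD, n = 3 each), so the separation rested on Col8a1. Together Col4a1, Col4a2 and Col18a1 made up 88.2% to 89.5% of all collagen CPM in Meis1-OE libraries and 94.8% to 96.4% in YFP-CTRL libraries. All collagen reads were 0.413% to 0.428% of the Meis1-OE libraries and 0.429% to 0.5000% of the YFP-CTRL libraries. These sums were given no test, and 3 libraries against 3 cannot go below an exact two-sided permutation p of 0.1.

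Per kilobase of coding length, the order of mean levels in Meis1-OE EC was Col4a1 (317 ± 21.3 CPM per kilobase), Col4a2 (219 ± 11.8), Col18a1 (158 ± 4.45), Col8a1 (113 ± 20.4), Col5a1 (22.3 ± 0.654), Col13a1 (17.0 ± 2.06) and Col23a1 (8.94 ± 4.08), each with its SD over 3 libraries in CPM per kilobase. In YFP-CTRL EC, Col13a1 stood at 19.3 ± 9.22 CPM per kilobase and Col5a1 at 8.28 ± 1.19. Col4a1 (371 ± 84.7), Col4a2 (305 ± 31.4) and Col18a1 (253 ± 19.5 CPM per kilobase) again led there, and the means of Col4a1 and Col4a2 differed by less than the SD of Col4a1. Col8a1 followed at 39.1 ± 19.9 CPM per kilobase. The coding lengths used here and in the ratios between chains leave out untranslated regions. The counts may include reads from those regions, so comparisons between genes are approximate.

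**Figure D3:**
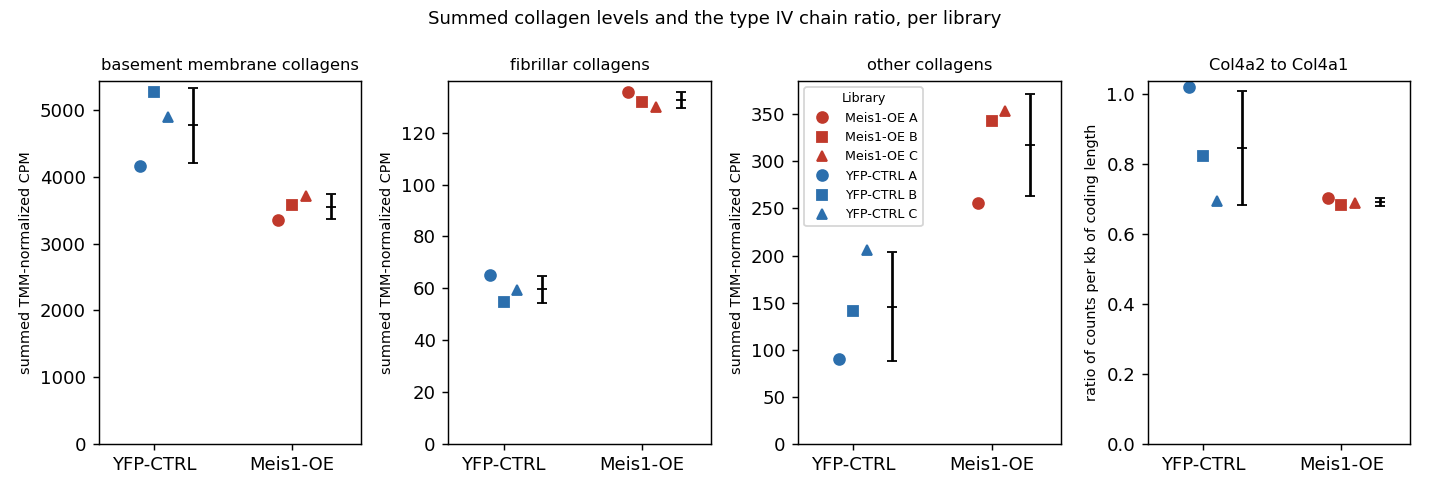
Summed TMM-normalized CPM of basement membrane, fibrillar and other collagens, and the ratio of Col4a2 to Col4a1 counts per kilobase of coding length, in each library, with the mean and SD (n = 3) as black bars. The basement membrane sum is lower in Meis1-OE EC, the other sums are higher, and the ratio ranges from 0.694 to 1.02 in YFP-CTRL EC and from 0.682 to 0.703 in Meis1-OE EC.

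Genes that make, secrete, process, crosslink or bind collagen were taken from a list of 54, of which 41 were tested. Tll1, Loxl4, Fn1, Plod1 and Pcolce2 rose and Serpinh1 and P3h2 fell. That made 7 of 41 past the threshold (17.1%) against 6.87% of all genes tested. The list was chosen with earlier results of these data known, so nothing is read from that share. The median log2 fold change of the 41 was -0.0009, beside 0.01 for all genes.
Tll1, a protease that like Bmp1 cuts the C-terminal propeptides of fibrillar procollagens, was at 47.8, 55.6 and 52.2 CPM with Meis1-OE and at 1.91, 2.74 and 5.24 CPM in controls. All Meis1-OE libraries were higher, with a log2 fold change of 3.96 (standard error 0.36, edgeR adjusted p = 0.00294), and Tll1 passed under all 15 alternatives run. Bmp1 itself was at -0.16 (edgeR adjusted p = 0.510). Pcolce2, an enhancer of that cleavage, rose to a mean of 44.4 ± 1.90 CPM against 29.5 ± 3.70 CPM in controls (SD, n = 3 each). The edgeR log2 fold change was 0.59 (adjusted p = 0.0405).
Serpinh1, the collagen chaperone HSP47, was at 264, 251 and 271 CPM with Meis1-OE and at 777, 822 and 394 CPM in controls. The conditions did not overlap, and YFP-CTRL library C was the nearest to Meis1-OE EC. The log2 fold change was -1.34 (standard error 0.26, edgeR adjusted p = 0.0306), and with the S and G2/M score as a covariate it was -0.74 (edgeR adjusted p = 0.113).
P3h2, a prolyl 3-hydroxylase with a preference for basement membrane collagen, fell to a mean of 19.2 ± 0.884 CPM against 39.6 ± 11.7 CPM in controls (SD, n = 3 each). The edgeR log2 fold change was -1.04 (adjusted p = 0.0389). Plod1, a lysyl hydroxylase, rose to a mean of 19.2 ± 2.04 CPM against 11.9 ± 0.758 CPM in controls (SD, n = 3 each). The edgeR log2 fold change was 0.69 (adjusted p = 0.0312). P4ha1, a catalytic subunit of prolyl 4-hydroxylase, had a log2 fold change of -0.24 (edgeR adjusted p = 0.241, and 0.0280 without YFP-CTRL library C).
Of the crosslinking and assembly genes, Loxl4, a lysyl oxidase, was at 53.7, 56.2 and 51.0 CPM against 11.97, 25.3 and 16.7 CPM, with a log2 fold change of 1.58 (standard error 0.26, edgeR adjusted p = 0.0169). Fn1, the fibronectin on which cells assemble collagen, rose to a mean of 3636 ± 466 CPM against 2012 ± 403 CPM in controls (SD, n = 3 each). The edgeR log2 fold change was 0.85 (adjusted p = 0.0376). Lox did not exceed 1 count per library and could not be tested. None of the 8 tested collagen receptor genes passed the threshold by edgeR, DESeq2 or limma-voom with all libraries, and 1 had an unadjusted edgeR p under 0.05. With single libraries left out of the edgeR fit, 3 did pass. The collagen receptor kinase Ddr1 had a log2 fold change of 1.06 (adjusted p = 0.0212) without YFP-CTRL library A, the integrin chain Itga2 one of 0.87 (adjusted p = 0.0411) without YFP-CTRL library B, and the kinase Ddr2 one of -1.67 (adjusted p = 0.00179) without YFP-CTRL library C.
Loxl4, Serpinh1, P3h2, Fn1, Plod1 and Pcolce2 each failed the threshold without Meis1-OE library A, B or C (edgeR adjusted p up to 0.0875, 0.154, 0.174, 0.157, 0.182 and 0.213), and all of these except Loxl4 also failed without YFP-CTRL library B (0.117, 0.127, 0.114, 0.0913 and 0.127 in that order). Serpinh1, P3h2, Fn1 and Pcolce2 failed without YFP-CTRL library A as well (edgeR adjusted p of 0.0626, 0.0771, 0.0644 and 0.0521). With the S and G2/M score as a covariate, Tll1 was the only gene of this list that passed upward. With the column letter as a replicate block, none passed downward.

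**Figure D4:**
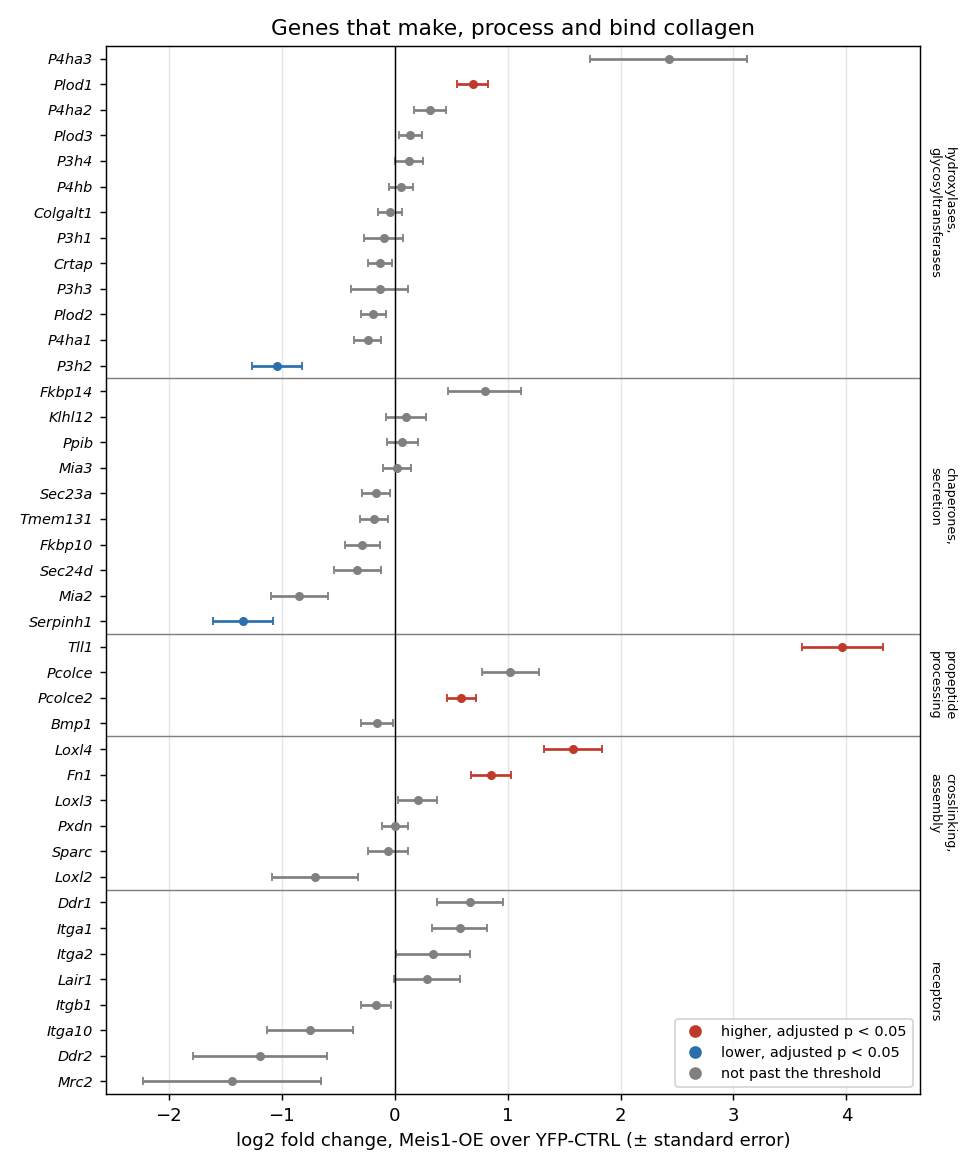
Log2 fold change of Meis1-OE over YFP-CTRL for the 41 tested genes of collagen synthesis, secretion, processing, crosslinking and binding, with bars of 1 standard error from edgeR's quasi-likelihood fit. Red genes (5) and blue genes (2) passed an adjusted p of 0.05, and Tll1 has the largest value, 3.96.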

How the data were processed

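RNA-seq of 6 libraries was compared, 3 of Meis1-OE EC and 3 of YFP-CTRL EC. The table deposited by the authors holds estimated counts for 54429 gene symbols without normalization, and build mm10 is given in the submitters' processing notes. The aligner, counting tool and annotation are not given in the sources used here, and neither is the use of strand. Conditions came from the labels and the column names, and the letters of the columns are not tied to the replicate numbers of the labels. Counts were rounded to whole numbers, which touched 7767 to 8411 genes per library.

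Counts were analysed across all genes in R 4.3.3 with edgeR 4.0.16 (TMM, filterByExpr, quasi-likelihood test, standard errors from the F statistic) with Benjamini-Hochberg adjustment over 16065 genes at 0.05. Alternatives were DESeq2 1.42.0, limma 3.58.1 (voom), other scalings and filters, a robust fit, each library left out, thresholds of 0.01 and 0.1, the column letter as a block and the S and G2/M score as a covariate. The plain edgeR, DESeq2 and limma-voom fits were tested on simulated counts. In these, all genes had the same dispersion and libraries of a condition differed only in depth and random draw. The covariate, block and leave-out fits were not tested in this way. Figures were drawn with matplotlib 3.10.9. Intervals and floors (3 counts) take in counting error alone, because no molecular identifiers tell molecules from PCR copies. Spans and promoter windows are from RefSeq on GRCm38.p6, the release of mm10, where all 44 symbols matched and 35 had a window. The start used for a window can differ from the outer end of the gene's span. Coding lengths are the longest per symbol in GENCODE vM1 and were found for 43. Annotated genes that overlap the tested collagens, other than neighbouring collagens, had a mean under 0.1 CPM or no row in the table.

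The members and gene lists were chosen with earlier results of these data known. All collagens were to be named, as were list genes past the threshold, Serpinh1, P4ha1 and Lox.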

Additional observations from a re-analysis of the deposited data

How the results depend on the processing

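No paired analysis by the labels' replicate numbers was possible because the columns carry letters that no source ties to those numbers. Same-letter libraries had correlations of deviations from their condition means of 0.245, 0.19 and 0.0809 for A, B and C, so the letters were not used as pairs. With the letter as a replicate block, 5 collagens were higher and 1 lower, as without it, whereas 2 processing and receptor genes were higher and 0 lower, and of all genes 544 were higher and 189 lower.

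Numbers of collagens that were higher and lower, 5 and 1 in the reported fit, were 2 and 1 with at least 10 counts in every library (0 basement membrane and 1 other collagen higher), where Col14a1 and Col4a4 could not be tested. They were 2 and 2 with the S and G2/M score as a covariate (0 basement membrane and 1 other collagen higher, 1 other lower), 6 and 3 with DESeq2 (1 fibrillar and 2 basement membrane collagens lower), 2 and 0 at an adjusted p of 0.01 (0 basement membrane and 1 other higher) and 7 and 3 at 0.1 (5 other higher, 1 fibrillar and 2 basement membrane lower). With single libraries left out they ran from 2 to 6 and from 0 to 3, with 0 to 1 fibrillar lower, 0 to 1 basement membrane higher, 0 to 2 basement membrane lower and 1 to 4 others higher. Leaving out YFP-CTRL library A or C gave 3 lower collagens, and leaving out any of the other 4 libraries gave 0.

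Processing and receptor genes, 5 higher and 2 lower, gave 1 lower on library totals and with limma-voom, 1 higher with the covariate, 1 higher and 0 lower at 0.01, and 1 to 8 higher and 0 to 5 lower with single libraries left out. The covariate, and leaving out YFP-CTRL library A, each gave 2 lower. Serpinh1 failed in both of these fits and P3h2 without library A, so the 2 were not the same genes. P3h2 failed in 9 of 15 alternatives. Over all genes, 665 higher and 438 lower became 1048 and 179 on library totals, 1128 and 1115 with DESeq2, 168 and 40 at 0.01, 1138 and 1073 at 0.1, 363 higher with the covariate, and 115 to 2717 higher and 16 to 2498 lower with single libraries left out (the lowest without Meis1-OE library B, the highest without YFP-CTRL library C).

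The log2 ratio of summed fibrillar CPM, 1.15, was 1.29 on library totals and -0.53 without Col5a1, and that of the other collagens, 1.13, was 0.17 without Col8a1. The cause of these changes was not tested. Col5a1 passed under all alternatives. Col14a1 passed under all that could test it, but it reached them only through the Meis1-OE libraries. The filter of at least 10 counts in every library left Col14a1 out. Collagens with under 10 counts per library are limited by depth.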
